A study of Mus musculus with 36 samples.

Results

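Oligodendrocytes are the cells that wrap axons of the central nervous system in myelin, and 32 genes of myelin and of the mature oligodendrocyte were followed through hippocampal RNA libraries of knockout and wild-type mice. The genes were listed by symbol, and a member was kept when its counts summed over the 36 libraries reached 10. All 32 symbols matched the count table and 31 met the rule, of 35500 genes in the series that did. Qdpr lay just inside the limit with 12 counts, and Evi2a lay outside it with 0. The remaining 30 members had enough counts to be tested, and a statement about tested members refers to these 30. Their summed counts ran from 3298 for Tmem125 to 984490 for Mbp.

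Bulk RNA sequencing of hippocampus was carried out in 6 groups of 6 mice, each of 3 males and 3 females. The groups were Fmr1 knockout (KO) mice given cannabidiol (CBD) or vehicle, Shank3 KO mice given CBD or vehicle, and wild-type (WT) mice given CBD or vehicle. Mice received subcutaneous injections of CBD, a plant cannabinoid, or of vehicle over 7 days. Males were given 5 mg/kg of CBD and females 50 mg/kg, so that dose and sex cannot be told apart among CBD mice. The Fmr1 protein binds RNA and is lost in fragile X syndrome, and the Shank3 protein is a scaffold of excitatory synapses. The sources used here give no strain, age, KO allele or vehicle, and do not say whether the genotypes were littermates. The sex of each mouse was read from the sheet deposited with the counts. Each label code carries a number that several libraries share, 3 numbers among Fmr1 KO, 5 among Shank3 KO and 4 among WT libraries. The sources used here do not say what the number marks. No number occurs in more than 1 genotype, so code number and genotype cannot be told apart. In every genotype some numbers hold CBD and vehicle libraries unevenly, so comparisons of CBD with vehicle are not balanced over them. Fmr1 KO number 12 has 1 CBD and 3 vehicle libraries, number 15 has 3 and 1, and number 16 has 2 and 2. The codes of Fmr1 KO libraries and of all WT libraries but WT CBD replicate 1 begin alike, and those of Shank3 KO libraries begin differently, so a comparison of Shank3 KO with WT also compares libraries of different code stems. The p-values measure the spread between these libraries.

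Mature oligodendrocytes arise from dividing precursors, and they switch on the genes of the myelin sheath together, under transcription factors that include Sox10, Nkx6-2 and Myrf. The sheath is a stack of membranes rich in galactolipids and cholesterol, held together by a small set of abundant proteins. In the hippocampus myelinated fibres lie mainly in the alveus, the fimbria and the layers where afferent axons run. In bulk RNA, fewer oligodendrocytes and less myelin RNA per oligodendrocyte cannot be told apart.

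RefSeq promoter windows of build GRCm38.p6, which run from upstream of a gene's start to just inside the transcript, were matched for 24 of the 32 members. No entry was matched for Mbp, Fa2h, Myrf, Car2, Trf, Evi2a, Bcas1 and Sox10. Both strands were searched for CTGGCAC or CTGGTAC, the core letters bound by the MYRF protein, and for ACAAAG or ACAATG, a core bound by SOX proteins. The first motif was found in 7 of 24 members (29.2%), namely Cnp, Hapln2, Lpar1, Mag, Mog, Opalin and Tmem125, against 8.10% of 27025 genes and 7.10% of 32851 windows. The second was found in 12 of 24 members (50.0%), against 31.7% of the genes and 28.6% of the windows. Genes with several starts had several windows, and a match is a description of letters, not of a bound site. Mag, Mog, Opalin and Cnp are shown as sheath genes with a MYRF core, and Ninj2, which tracked the other members least, as a member with neither motif. Cldn11, Mal, Ugt8a and Aspa also had neither motif and tracked the other members more closely than Cnp, so these windows show no order of motif and tracking. Each sequence reads 5′ to 3′ on the strand of its gene, with matches to either motif in capitals. A match on the opposite strand appears as its reverse complement, and no printed match overlaps another. Mag lies at chr7:30914814-30915113 on the minus strand, Mog at chr17:37023349-37023648 on the minus strand, Opalin at chr19:41077064-41077363 on the minus strand, Cnp at chr11:100574689-100574988 on the plus strand and Ninj2 at chr6:120093130-120093429 on the plus strand.
Mag: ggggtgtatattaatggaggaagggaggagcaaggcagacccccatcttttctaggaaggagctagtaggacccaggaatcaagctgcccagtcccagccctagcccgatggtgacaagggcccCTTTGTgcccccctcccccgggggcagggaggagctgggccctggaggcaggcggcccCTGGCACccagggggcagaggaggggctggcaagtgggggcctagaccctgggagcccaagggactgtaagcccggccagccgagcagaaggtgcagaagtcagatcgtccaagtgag
Mog: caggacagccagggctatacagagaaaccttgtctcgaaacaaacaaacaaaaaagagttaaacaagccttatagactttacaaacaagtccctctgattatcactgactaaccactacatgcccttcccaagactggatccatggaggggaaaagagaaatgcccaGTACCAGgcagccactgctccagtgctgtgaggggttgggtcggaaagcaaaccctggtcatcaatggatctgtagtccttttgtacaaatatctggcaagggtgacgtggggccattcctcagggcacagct
Opalin: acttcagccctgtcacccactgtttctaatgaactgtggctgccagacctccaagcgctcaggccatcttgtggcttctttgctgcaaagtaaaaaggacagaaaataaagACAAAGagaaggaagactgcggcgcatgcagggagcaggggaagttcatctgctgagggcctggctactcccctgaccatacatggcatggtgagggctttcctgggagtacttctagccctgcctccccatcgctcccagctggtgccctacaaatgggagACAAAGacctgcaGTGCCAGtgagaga
Cnp: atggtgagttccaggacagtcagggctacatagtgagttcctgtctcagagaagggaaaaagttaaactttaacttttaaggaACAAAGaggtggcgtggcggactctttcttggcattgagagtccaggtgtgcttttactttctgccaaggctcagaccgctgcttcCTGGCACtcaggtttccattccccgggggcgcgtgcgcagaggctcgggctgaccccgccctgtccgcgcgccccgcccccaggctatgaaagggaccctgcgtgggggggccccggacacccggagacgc
Ninj2: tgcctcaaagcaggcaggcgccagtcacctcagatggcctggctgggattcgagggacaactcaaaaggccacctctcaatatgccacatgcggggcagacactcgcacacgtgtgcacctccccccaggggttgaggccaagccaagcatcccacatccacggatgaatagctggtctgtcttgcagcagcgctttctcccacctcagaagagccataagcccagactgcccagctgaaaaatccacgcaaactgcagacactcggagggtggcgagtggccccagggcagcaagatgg

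Total counts per library ran from 11655697 to 33228089, with a median of 26717940.5. The targeted genes were lower in the matching KO libraries (edgeR quasi-likelihood, Benjamini-Hochberg adjusted): Fmr1 averaged 41.1 CPM (counts scaled to a common library size) in Fmr1 KO vehicle and 73.9 CPM in WT vehicle libraries, a log2 fold change of -0.85 (SE 0.08, adjusted p = 4.87e-09), and -0.81 under CBD (adjusted p = 1.75e-08). Shank3 averaged 168 CPM in Shank3 KO vehicle and 265 CPM in WT vehicle libraries, a log2 fold change of -0.66 (SE 0.12, adjusted p = 0.0103), and -0.67 under CBD (adjusted p = 0.00781). The deposited gene lengths were whole gene spans, so a count was read as covering introns as well as exons.

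Fmr1 KO CBD replicate 3, a male, stood apart from the other libraries. The members took 0.0640% of its counts, against 0.163% to 0.449% in the other 35 libraries. It also had the lowest dentate granule neuron list (mean log2 level 3.63, against 4.83 to 6.64 in the others) and the lowest pyramidal neuron list (5.42, against 5.45 to 6.85), and the highest list of oligodendrocyte precursor markers (4.94, against 4.19 to 4.78). Shank3 KO vehicle replicate 2, which had the smallest total, and WT CBD replicate 1 were likewise the lowest or the highest library for many genes: 9.89% and 8.36% of tested genes in Shank3 KO vehicle replicate 2, 9.67% and 8.13% in WT CBD replicate 1, and 8.90% and 7.58% in Fmr1 KO CBD replicate 3. Those shares were 6.73% and 6.95% in WT CBD replicate 2 and 4.08% and 8.64% in Fmr1 KO CBD replicate 5, and at most 4.33% and 4.55% in each of the rest. In the other 35 libraries the dentate and pyramidal lists, which mark hippocampal neurons, had mean log2 levels of at least 4.83 and 5.45. The main results for the Fmr1 KO CBD group are given with and without replicate 3.

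Per kilobase of joined exons, Mbp, the basic protein that compacts the cytoplasmic faces of the sheath, had the highest level of the members, with 122 CPM per kb. It was followed by Cldn11, a tight junction claudin of the sheath, with 56.6, Car2, a carbonic anhydrase, with 50.9, Trf, the iron carrier transferrin, with 46.3, Cnp, a cyclic nucleotide phosphodiesterase of uncompacted myelin, with 45.3, and Mal, a membrane proteolipid, with 41.9 CPM per kb. The lowest tested members were Hapln2, a hyaluronan link protein at nodes of Ranvier, with 2.10, Enpp6, a choline phosphodiesterase of newly forming oligodendrocytes, with 1.54, and Tmem125, a transmembrane protein, with 1.48 CPM per kb. Per kilobase of deposited gene span the order changed, with Cnp (9.80 CPM per kb), Tmem88b (9.70) and Mbp (9.34) at the top. The lowest tested members by that measure were Lpar1 (0.311), Ninj2 (0.124) and Enpp6 (0.0900), so the low rank of Hapln2 and Tmem125 depended on the length used. By the GRCm38 gene annotation, 53.0% of Cnp lay inside other genes, mainly Dnajc7, as did 32.2% of Bcas1, 28.0% of Enpp6 and 21.3% of Pllp, and how reads in such overlaps were counted is not stated in the sources used here, so the levels of these genes are uncertain. Of 1389 protein-coding genes lying at least 95% inside other genes 83.2% had no count, against 8.65% of 20346 others. Evi2a lies wholly inside Nf1 and Evi2, and 97.1% of Qdpr, which recycles the cofactor tetrahydrobiopterin, lies inside Gm42413, so their counts say little about their RNA.

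The mean log2(CPM + 0.5) of the 30 tested members, called the member level here, was lowest in the Fmr1 KO CBD group. It averaged 4.71 ± 0.69 in Fmr1 KO CBD libraries (SD, n = 6), with a lowest value of 3.39, a median of 4.89 and a highest of 5.24. Without replicate 3 it averaged 4.97 ± 0.25 (n = 5). It averaged 5.19 ± 0.45 in Fmr1 KO vehicle, 5.28 ± 0.54 in Shank3 KO CBD, 5.50 ± 0.34 in Shank3 KO vehicle, 5.44 ± 0.38 in WT CBD and 5.30 ± 0.40 in WT vehicle libraries (SD, n = 6 each). The ranges were 4.64 to 5.75, 4.46 to 5.96, 5.04 to 5.88, 5.14 to 6.03 and 4.91 to 5.93 in the same order, so every group overlapped every other. For 30 of 30 members the lowest group mean was that of Fmr1 KO CBD, and for 29 of 30 without replicate 3. The highest group mean was that of Shank3 KO vehicle for 24 members and of WT CBD for 6. Since the members move together, as described below, these counts are not separate pieces of evidence. The share of all genes with the same order of groups is not given here.

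**Figure D1:**
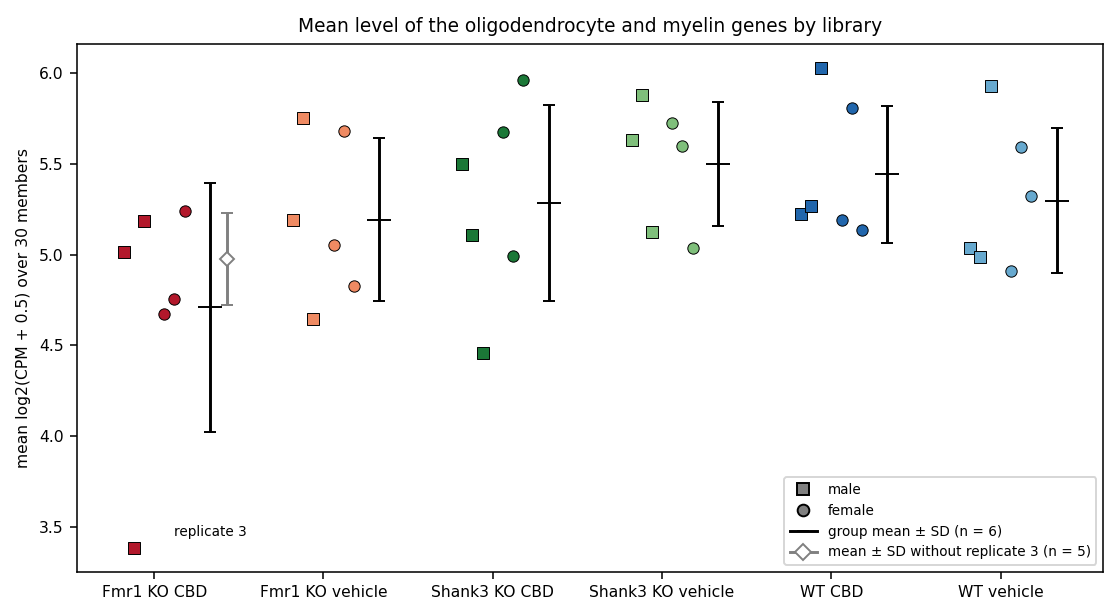
Member level of each library, the mean log2(CPM + 0.5) of the 30 tested members, by group and sex, with group means and SD. Fmr1 KO CBD replicate 3 lies at 3.39, and the other 35 libraries lie between 4.46 and 6.03.

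**Figure D2:**
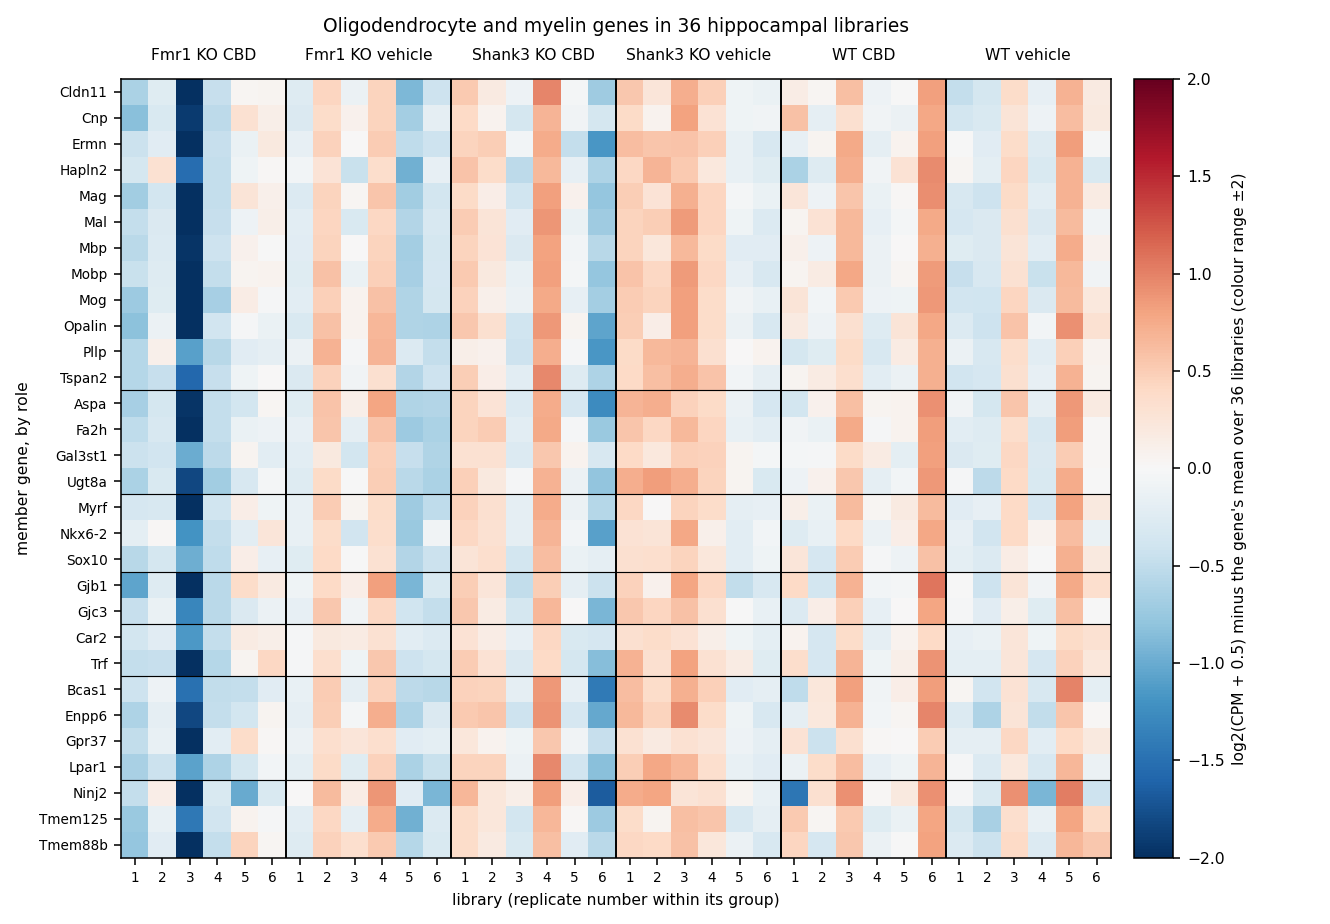
Level of each tested member in each of the 36 libraries on the log2 scale, relative to the member's own mean, with members ordered by role. The column of Fmr1 KO CBD replicate 3 is the darkest blue for nearly all members, and most libraries are high or low for all members at once.

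The members moved together from library to library. With group means removed, the 435 pairs of members had Pearson r from 0.50 (Cnp and Ninj2) to 0.99 (Mal and Mobp) over the 36 libraries, with a median of 0.89, and 377 pairs were above 0.8. Without Fmr1 KO CBD replicate 3 the median was 0.88 and 353 pairs were above 0.8. A first component held 88.0% of the members' variance and a second 5.78%. The members that followed the mean of the other members most closely were Mbp (r = 0.99), Fa2h, which hydroxylates fatty acids of myelin lipids (0.99), and Mobp, a basic protein of the sheath (0.98). Ninj2, a small adhesion protein, followed it least (0.77). Members measured in the same library share its depth and scaling, and these correlations are descriptions.

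Members differed in how far they moved when the others moved. Per unit of log2 change in the mean of the other members, Ermn, a cytoskeletal protein of the sheath, moved by 1.24 and Ninj2 by 1.20. Car2 moved by 0.59, Gal3st1, which sulfates galactosylceramide to sulfatide, by 0.64 and Sox10 by 0.65. With Fmr1 KO CBD replicate 3 left out these values were 1.12 for Ermn, 1.25 for Ninj2, 0.58 for Car2, 0.74 for Gal3st1 and 0.75 for Sox10, and Enpp6 and Aspa (1.21 each), Opalin (1.18) and Bcas1 (1.17) then had higher values than Ermn. Over all libraries Ninj2 ranged over 10.5-fold and Gjb1, a connexin, over 15.9-fold, whereas Car2 ranged over 2.97-fold and Sox10 over 3.28-fold. Without Fmr1 KO CBD replicate 3 these ranges were 7.32-fold for Ninj2, 4.90-fold for Gjb1, 1.87-fold for Car2 and 2.48-fold for Sox10.

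The genes outside the list that tracked the member level most closely were then named. Among the 10 with the highest Pearson r over 36 libraries, group means removed, were Plekhh1 (0.99), Tmem63a (0.98), Sept4 (0.97), Galnt6 (0.97), Erbb3, a neuregulin receptor (0.97), Ttyh2 (0.96), Phldb1 (0.96), Gatm, an enzyme of creatine synthesis (0.96), and Plxnb3, a plexin (0.96). Without Fmr1 KO CBD replicate 3 the r of these genes ran from 0.95 to 0.98. All of these but Sept4, Ttyh2 and Gatm were in the other lists of lineage genes. The mean of 29 other mature oligodendrocyte genes had r = 0.99 with the member level (rho 0.98), and that of 14 other lineage regulators r = 0.70 (rho 0.75). Precursor markers had r = 0.01 (rho 0.31), which was 0.43 without the 2 libraries farthest from the median member level, Fmr1 KO CBD replicate 3 and Shank3 KO CBD replicate 6. Dentate granule neuron markers had r = 0.46 (rho 0.18), which was 0.03 without those libraries, so that relation rested on them. Ependymal markers had r = 0.42 (rho 0.44) and 0.36 without them. Over the other 9 lists r ran from -0.17 for Schwann cell markers to 0.34 for committed and newly formed oligodendrocyte markers. Astrocyte markers had -0.05, microglia 0.09, endothelial 0.02, pyramidal neuron 0.15, choroid plexus 0.22, striatal neuron 0.26 and thalamus markers 0.31. Without the same 2 libraries pyramidal neuron markers turned to -0.25, choroid plexus markers had 0.07, striatal neuron markers 0.43, thalamus markers 0.42 and Schwann cell markers -0.06. The other lists then had 0.98 for other mature oligodendrocyte genes, 0.70 for lineage regulators, 0.33 for committed oligodendrocyte, -0.04 for astrocyte, -0.01 for microglia and -0.09 for endothelial markers.

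The first comparison asked whether CBD moved the members in Fmr1 KO mice. All 30 tested members had lower values in Fmr1 KO CBD than in Fmr1 KO vehicle libraries, with a median log2 fold change of -0.43 (from -0.79 for Ninj2 to -0.17 for Hapln2) beside 0.01 over all genes, of which 48.3% were lower. No member was called at an adjusted p under 0.05 by edgeR's quasi-likelihood test, by DESeq2 or by limma voom, beside 0% of all 21172 genes tested with edgeR. At an unadjusted p under 0.05 edgeR gave 2 members, DESeq2 3 and limma voom 5, beside 2.64% of all genes with edgeR. For this and later comparisons, shares of all genes with DESeq2 and limma voom are not given. Counts of members are thus not compared between tools. For no member were the groups separate, which held for 0.0520% of all genes. Without replicate 3 the median was -0.23, 29 members were lower, Hapln2 had 0.01, and no member had an unadjusted p under 0.05, beside 1.79% of all genes.

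Among the 12 sheath proteins the median log2 fold change was -0.41, and -0.21 without replicate 3. Mbp had 249.8, 769 and 1038 CPM as its lowest, median and highest in Fmr1 KO CBD libraries, against 608, 908 and 1336 CPM in Fmr1 KO vehicle libraries. The log2 fold change was -0.39 (SE 0.26). Replicate 3 lay below all vehicle libraries and the other 5 within their range. Mog, on the outer surface of the sheath, had 7.08, 28.1 and 42.4 CPM in Fmr1 KO CBD libraries, against 25.1, 36.7 and 58.0 CPM in Fmr1 KO vehicle libraries (log2 fold change -0.53, SE 0.29). Here 3 CBD libraries lay below all vehicle libraries and the rest overlapped. Mag, an adhesion protein that faces the axon, had 11.2, 43.2 and 69.3 CPM in Fmr1 KO CBD libraries, against 35.6, 53.8 and 85.5 CPM in Fmr1 KO vehicle libraries (-0.42, SE 0.30). Pllp, the proteolipid plasmolipin, had 5.90, 9.997 and 14.1 CPM in Fmr1 KO CBD libraries, against 9.29, 12.5 and 21.5 CPM in Fmr1 KO vehicle libraries, and it had the smallest p of the members (-0.55, SE 0.25, unadjusted p = 0.0397, adjusted p = 0.9997 with edgeR). The adjusted p was 0.9997 for every member, and Pllp had -0.43 (unadjusted p = 0.108, edgeR) without replicate 3. The other sheath genes had -0.54 for Opalin, a transmembrane protein, -0.45 for Ermn, -0.42 for Mobp, -0.40 for Tspan2, a tetraspanin, -0.38 for Mal, -0.38 for Cnp and -0.37 for Cldn11. Without replicate 3 most of these differences were smaller by over 1.5 times, with -0.21 for Mbp, -0.33 for Mog, -0.21 for Mag, -0.34 for Opalin, -0.24 for Ermn, -0.22 for Mobp, -0.25 for Tspan2, -0.18 for Mal, -0.19 for Cnp and -0.17 for Cldn11.

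The 4 enzymes of myelin lipids and acetate had a median of -0.50, and -0.32 without replicate 3. Ugt8a, which makes galactosylceramide, had 21.0, 54.4 and 73.1 CPM in Fmr1 KO CBD libraries, against 48.5, 68.9 and 107 CPM in Fmr1 KO vehicle libraries (log2 fold change -0.51, SE 0.27). Aspa, which frees acetate from N-acetylaspartate, had 5.66, 17.4 and 24.1 CPM in Fmr1 KO CBD libraries, against 15.3, 22.5 and 40.8 CPM in Fmr1 KO vehicle libraries (-0.65, SE 0.31, unadjusted p = 0.0462, adjusted p = 0.9997 with edgeR). The groups overlapped for both genes. Fa2h had -0.49 and Gal3st1 -0.29. Without replicate 3 the log2 fold changes were -0.35 for Ugt8a, -0.47 for Aspa, -0.30 for Fa2h and -0.19 for Gal3st1.

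The 3 transcription factors had a median of -0.32, and -0.18 without replicate 3. Sox10, which acts through the whole lineage, had 16.3, 24.05 and 35.7 CPM in Fmr1 KO CBD libraries, against 21.6, 29.9 and 42.9 CPM in Fmr1 KO vehicle libraries (log2 fold change -0.32, SE 0.20). Myrf, which switches on myelin genes, had 14.0, 56.7 and 78.2 CPM in Fmr1 KO CBD libraries, against 43.1, 69.1 and 101 CPM in Fmr1 KO vehicle libraries (-0.38, SE 0.27). Nkx6-2, a homeobox factor, had -0.21 (SE 0.27). For Sox10 and Myrf replicate 3 alone lay below all vehicle libraries, and without it the values were -0.22 for Sox10, -0.18 for Myrf and -0.06 for Nkx6-2.

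The connexin genes Gjc3 and Gjb1 had -0.47 (SE 0.24) and -0.52 (SE 0.35). Gjc3 had 8.63, 16.9 and 20.3 CPM in Fmr1 KO CBD libraries, against 15.8, 20.3 and 32.4 CPM in Fmr1 KO vehicle libraries, with 2 CBD libraries below the vehicle range. Trf had -0.42 (SE 0.29) and Car2 -0.31 (SE 0.17). Without replicate 3 these values were -0.34 for Gjc3, -0.30 for Gjb1, -0.20 for Trf and -0.18 for Car2. Of the stage and receptor genes, Enpp6 had 2.22, 6.67 and 9.46 CPM in Fmr1 KO CBD libraries, against 5.76, 8.43 and 15.4 CPM in Fmr1 KO vehicle libraries (-0.60, SE 0.32). Its lowest value was replicate 3, and the other CBD libraries overlapped the vehicle range. The others of that group were Lpar1, a lysophosphatidic acid receptor, with -0.45, Bcas1, a gene of newly myelinating cells, with -0.48, and Gpr37, a receptor that restrains differentiation in mice, with -0.34 (SE 0.25, 0.30 and 0.23). Without replicate 3 Enpp6 had -0.41, Lpar1 -0.36, Bcas1 -0.34 and Gpr37 -0.14. Ninj2 had 2.33, 8.83 and 12.9 CPM in Fmr1 KO CBD libraries, against 6.03, 12.4 and 22.1 CPM in Fmr1 KO vehicle libraries (-0.79, SE 0.40), and -0.60 without replicate 3. The transmembrane genes Tmem125 and Tmem88b had -0.46 and -0.44, and -0.28 and -0.23 without it.

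**Figure D3:**
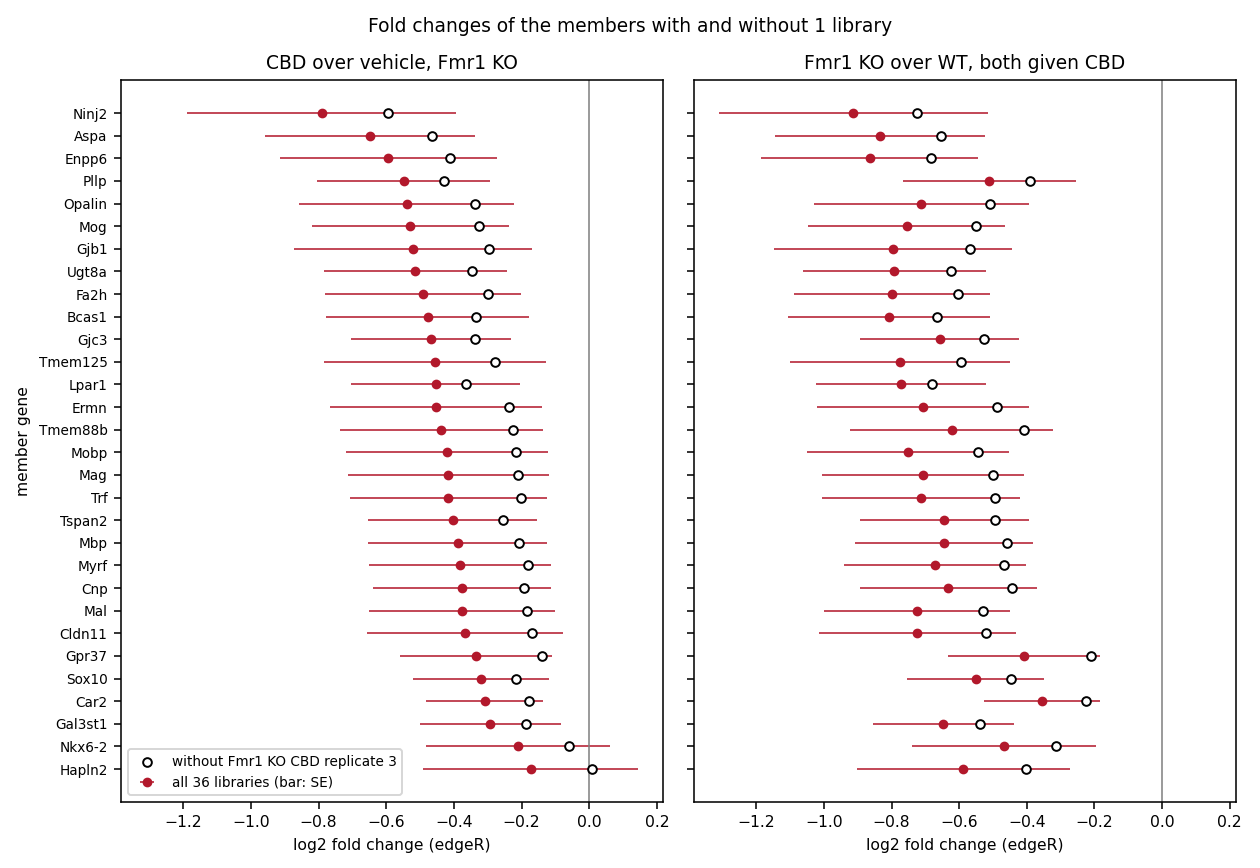
Log2 fold change of each of the 30 tested members, with SE, in Fmr1 KO CBD against Fmr1 KO vehicle libraries and in Fmr1 KO CBD against WT CBD libraries, with all libraries and without Fmr1 KO CBD replicate 3. The medians are -0.43 and -0.71 with all libraries, and -0.23 and -0.51 without that library.

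Other lists measured in the same fit were set beside the members. Of 29 other mature oligodendrocyte genes 26 had lower values in Fmr1 KO CBD libraries (median -0.31), and 24 without replicate 3 (-0.14). The smallest p among them belonged to Plxnb3 (-0.45), Prr5l (-0.74) and Elovl7 (-0.59). Of 10 precursor markers 9 had higher values (median 0.13), and 7 without replicate 3 (0.06), with Cspg4 at 0.23, Emid1 at 0.25 and Pdgfra, the growth factor receptor of precursors, at 0.18. Of 14 lineage regulators 8 were lower (-0.03), with St18, a zinc finger factor, at -0.52, and of 9 committed oligodendrocyte markers 7 were lower (-0.05). Without replicate 3, 10 regulators (-0.05) and 8 committed markers (-0.09) were lower. Choroid plexus markers were lower for 8 of 8 (-0.95) and ependymal markers for 8 of 9 (-0.47), with -0.69 and -0.44 without replicate 3, and their part in the members' values was not tested. Microglia markers were higher for 9 of 9 (0.17, and 0.21 without replicate 3), with C1qa at 0.33 (SE 0.11, unadjusted p = 0.00656, adjusted p = 0.9997, edgeR). No gene of any list was called.

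Of the comparisons made, the largest median difference was that between Fmr1 KO and WT mice given CBD. All 30 had lower values in Fmr1 KO CBD than in WT CBD libraries, with a median log2 fold change of -0.71 (from -0.91 for Ninj2 to -0.35 for Car2), beside 0.00 over all genes, of which 49.9% were lower. No member was called (smallest adjusted p 0.654 with edgeR, 0.420 with DESeq2 and 0.436 with limma voom), beside 0.0331% of all genes. At an unadjusted p under 0.05 edgeR gave 26 members, DESeq2 27 and limma voom 28, beside 7.40% of all genes with edgeR. Since the members move together, these counts are not separate pieces of evidence. Without shares of all genes for DESeq2 and limma voom, the 3 counts do not rank the tools. For no member were the groups separate, beside 0.184% of all genes. Without replicate 3 the median was -0.51, all 30 were lower and 13 members had an unadjusted p under 0.05, beside 6.85% of all genes. Without WT CBD replicate 6, the WT CBD library with the highest member level, the median was -0.56 and 9 members had an unadjusted p under 0.05. The share of all genes in that fit is not given here.

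For all tested members but Bcas1, Hapln2, Ninj2, Gpr37 and Nkx6-2, 3 to 5 of the 6 Fmr1 KO CBD libraries, replicate 3 among them, lay below every WT CBD library. At least 3 did so for 7.23% of all genes. Gal3st1 had the smallest p (log2 fold change -0.65, SE 0.21, unadjusted p = 0.00399, adjusted p = 0.654, edgeR), and 5 of 6 Fmr1 KO CBD libraries lay below the WT CBD range. The same 5 of 6 was counted for Lpar1 (-0.77, SE 0.25), Ugt8a (-0.79, SE 0.27) and Enpp6 (-0.86, SE 0.32). Ugt8a had 21.0, 54.4 and 73.1 CPM as lowest, median and highest in Fmr1 KO CBD libraries, against 66.3, 76.3 and 138 CPM in WT CBD libraries. Enpp6 had 2.22, 6.67 and 9.46 CPM in Fmr1 KO CBD libraries, against 7.99, 10.003 and 18.3 CPM in WT CBD libraries. The ranges met only through the highest Fmr1 KO CBD library. Mbp had 249.8, 769 and 1038 CPM in Fmr1 KO CBD libraries, against 903, 1017 and 1603 CPM in WT CBD libraries. Mog had 7.08, 28.1 and 42.4 CPM in Fmr1 KO CBD libraries, against 35.8, 41.3 and 70.2 CPM in WT CBD libraries. The log2 fold changes of Fmr1 KO CBD against WT CBD libraries were -0.64 for Mbp, -0.76 for Mog and -0.67 for Myrf, and 4 of 6 Fmr1 KO CBD libraries lay below the WT CBD range for each. Sox10 had -0.55 (SE 0.20, unadjusted p = 0.0101, adjusted p = 0.654, edgeR), with 4 of 6 below. Without replicate 3 the log2 fold changes against WT CBD were -0.54 for Gal3st1, -0.68 for Lpar1, -0.62 for Ugt8a, -0.68 for Enpp6, -0.46 for Mbp, -0.55 for Mog, -0.47 for Myrf, -0.45 for Sox10 and -0.72 for Ninj2. For Ninj2, the member with the largest fold, 1 of 6 lay below the WT CBD range of 4.01 to 22.7 CPM.

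By role, the medians were -0.71 for the 12 sheath proteins, -0.79 for the 4 lipid and acetate enzymes, -0.55 for the 3 transcription factors, -0.73 for the 2 connexins, -0.53 for Trf and Car2, -0.79 for the 4 stage and receptor genes and -0.78 for the 3 other membrane proteins. Without replicate 3 they were -0.50, -0.61, -0.45, -0.55, -0.36, -0.67 and -0.60 in that order. Differences between the roles were not tested. Of 29 other mature oligodendrocyte genes 26 were lower (-0.54), and of 14 lineage regulators 11 (-0.18). Without replicate 3 these were 26 (-0.45) and 10 (-0.18). Of 10 precursor markers 6 were higher (0.05), and 4 without replicate 3 (-0.04).

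Markers of neighbouring tissue also differed between these 2 groups. Striatal neuron markers were lower for 9 of 9 tested (median -1.87, and -2.06 without replicate 3), 7 of them at an unadjusted p under 0.05. Their mean log2 level ran from 0.86 to 2.10 in Fmr1 KO CBD and from 0.74 to 4.62 in WT CBD libraries. WT CBD replicate 3 had 4.62 and replicate 6 had 3.18, and the rest of that group had at most 1.54. Those replicates 3 and 6 also had the highest member levels of WT CBD libraries, 5.81 and 6.03. Choroid plexus markers were lower for 8 of 8 (-1.73, and -1.43 without replicate 3), with levels from 0.66 to 4.79 in Fmr1 KO CBD and from 0.27 to 5.43 in WT CBD libraries. The mean log2 level of thalamus and habenula markers ran from 3.33 to 4.39 in Fmr1 KO CBD and from 3.39 to 5.66 in WT CBD libraries. That 5.66, the highest of all libraries, belonged to WT CBD replicate 6, which also had the highest member level (6.03). Its striatal level was 3.18 and its pyramidal neuron level 5.45. Penk of the striatal list, and Sostdc1 and Kcnj13 of the choroid plexus list, had 0 counts in every library, as had Olig2, Gpr17 and Sox9 of other lists. By the GRCm38 annotation Gpr17 and Kcnj13 lie wholly inside other genes, Penk 9.43%, and Olig2, Sox9 and Sostdc1 0%. The cause of these 0 counts was not tested, and they are not read as absence of the RNA. Astrocyte markers were higher for 9 of 11 (0.08) and microglia markers for 8 of 9 (0.11), and without replicate 3 for 10 of 11 (0.15) and 9 of 9 (0.18). Whether the amount of neighbouring tissue bears on the members' values was not tested.

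The CBD effect was then set against that in WT mice. In WT mice 28 of 30 members had higher values with CBD, beside 52.6% of all genes, with a median log2 fold change of 0.16 (from -0.02 for Car2 to 0.40 for Enpp6). At adjusted and at unadjusted p under 0.05, edgeR, DESeq2 and limma voom each gave 0 members, beside 0% and 2.68% of all genes with edgeR. Without WT CBD replicate 6, the library with the highest member level, the median was -0.01 and 18 members were lower. The difference of the CBD effect, Fmr1 KO minus WT, was negative for all 30 members (median -0.61, 51.1% of all genes). It was called for none with edgeR, DESeq2 or limma voom (0% of all genes with edgeR), and 1 member with edgeR, 1 with DESeq2 and 6 with limma voom had an unadjusted p under 0.05, beside 3.0% of all genes with edgeR. With edgeR that member was Enpp6 (-0.997, SE 0.45, unadjusted p = 0.0346, adjusted p = 0.993). Without Fmr1 KO CBD replicate 3 the median difference was -0.43 and no member had an unadjusted p under 0.05. This difference shares its libraries with the comparisons above.

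The differences between Fmr1 KO and WT mice under vehicle were small beside their errors. In this comparison 27 of 30 members had lower values in Fmr1 KO than in WT vehicle libraries, beside 49.5% of all genes, with a median log2 fold change of -0.12 (from -0.23 for Hapln2 to 0.13 for Enpp6). Mbp had 608, 908 and 1336 CPM in Fmr1 KO vehicle libraries, against 800.1, 941 and 1633 CPM in WT vehicle libraries (-0.11, SE 0.26), and the groups overlapped. No member was called or had an unadjusted p under 0.05 with edgeR, DESeq2 or limma voom, beside 0.0283% and 2.24% of all genes with edgeR. Without WT vehicle replicate 5, the highest WT vehicle library, the median was 0.07 and 4 members were lower.

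In Shank3 KO mice the members leaned the other way under vehicle. There 29 of 30 members had higher values than in WT mice, beside 49.9% of all genes, with a median of 0.18 (from -0.0015 for Myrf to 0.45 for Enpp6). Mbp had 831, 1205 and 1523 CPM in Shank3 KO vehicle libraries, against 800.1, 941 and 1633 CPM in WT vehicle libraries (0.13, SE 0.26). Ugt8a had 60.8, 114 and 134 CPM in Shank3 KO vehicle libraries, against 52.2, 74.4 and 126 CPM in WT vehicle libraries (0.36, SE 0.27). No member was called with edgeR, DESeq2 or limma voom (0.0378% of all genes with edgeR), and at an unadjusted p under 0.05 edgeR and DESeq2 gave 0 members and limma voom 1, beside 5.63% of all genes with edgeR. Leaving out WT vehicle replicate 5 gave a median of 0.38, and leaving out Shank3 KO vehicle replicate 3 gave 0.10. Striatal neuron markers were higher in the same comparison for 9 of 9 (median 1.79, mean log2 levels from 0.80 to 4.84 in Shank3 KO vehicle and from 0.87 to 1.70 in WT vehicle libraries), and dentate markers were lower for 9 of 10 (-0.54). The striatal level was 4.84, 3.86 and 3.06 in Shank3 KO vehicle replicates 2, 3 and 4, and at most 1.14 in the rest of that group. The part of striatal and dentate markers in the members' values was not tested.

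Under CBD all 30 members had lower values in Shank3 KO than in WT mice, beside 52.3% of all genes, with a median of -0.12 (from -0.32 for Trf to -0.03 for Tspan2). Mbp had 661, 1059 and 1696 CPM in Shank3 KO CBD libraries, against 903, 1017 and 1603 CPM in WT CBD libraries. The ranges overlapped, with Shank3 KO CBD libraries both below and above the WT CBD range. The count of members at adjusted or unadjusted p under 0.05 was 0 with edgeR, DESeq2 and limma voom, beside 0.0425% and 1.65% of all genes with edgeR. The median was 0.03 without WT CBD replicate 6 and 0.01 without Shank3 KO CBD replicate 6.

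CBD against vehicle in Shank3 KO mice gave lower values for all 30 members (50.0% of all genes), with a median of -0.16 (from -0.38 for Pllp to -0.01 for Myrf). Pllp had 5.56, 13.5 and 22.1 CPM in Shank3 KO CBD libraries, against 13.2, 16.9 and 21.4 CPM in Shank3 KO vehicle libraries (-0.38, SE 0.25). No member was called or had an unadjusted p under 0.05 with edgeR, DESeq2 or limma voom, beside 0% and 4.41% of all genes with edgeR. The median was -0.05 without Shank3 KO CBD replicate 6 and -0.31 without replicate 4. The difference of the CBD effect, Shank3 KO minus WT, was negative for all 30 members (median -0.33, 51.1% of all genes). At adjusted and at unadjusted p under 0.05, edgeR, DESeq2 and limma voom each gave 0 members, beside 0% and 4.74% of all genes with edgeR. The median was -0.16 without WT CBD replicate 6.

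The sexes were compared under vehicle. Over the 3 genotypes 27 of 30 members had higher values in male than in female vehicle libraries, beside 50.2% of all genes, with a median of 0.07 (from -0.05 for Myrf to 0.19 for Ugt8a). With edgeR, DESeq2 and limma voom, 0 members were called and 0 had an unadjusted p under 0.05, beside 0.0331% and 2.74% of all genes with edgeR. The median was -0.06 without WT vehicle replicate 5 and -0.04 without Fmr1 KO vehicle replicate 4.

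Split by sex, and so by dose, all 30 members were lower with CBD in Fmr1 KO males (48.0% of all genes; median -0.52) and in Fmr1 KO females (49.5%; median -0.33). The member levels were 3.39, 5.02 and 5.19 in male CBD mice, against 4.64, 5.19 and 5.75 in male vehicle mice. They were 4.67, 4.76 and 5.24 in female CBD mice, against 4.83, 5.06 and 5.68 in female vehicle mice. No member was called in either sex with edgeR, DESeq2 or limma voom, beside 0% of all genes in males and 0% in females with edgeR. At an unadjusted p under 0.05 edgeR and DESeq2 gave 1 member in males and limma voom 0, beside 4.28% of all genes with edgeR, and each tool gave 0 in females, beside 1.16%. Without replicate 3 the median in males, then 2 CBD against 3 vehicle mice, was -0.11, and without replicate 5 it was -0.92. In females it was -0.01 without Fmr1 KO vehicle replicate 2.

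The difference of the CBD effect between the sexes, male minus female, was negative for 27 of 30 members (48.7% of all genes; median -0.19). The count of members at adjusted or unadjusted p under 0.05 was 0 with edgeR, DESeq2 and limma voom, beside 0% and 1.93% of all genes with edgeR. The median turned to 0.21, with 6 members negative, without Fmr1 KO CBD replicate 3.

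Fmr1 KO CBD replicate 3 was then described gene by gene against the other 35 libraries. Of the 30 tested members 29 were below all 35 other libraries, and the median member stood at 24.3% of the others' median. Pllp was the exception, at 5.90 CPM against a lowest value of 5.56 CPM elsewhere. Gjb1 stood lowest, at 12.9% of the others' median, with 0.978 CPM in replicate 3, against 3.18, 7.60 and 15.6 CPM as lowest, median and highest of the others. Trf stood at 15.9%, Ermn at 16.0%, Mag at 18.1%, Mog at 18.8% and Mbp at 25.4%. The members nearest to the others were Lpar1 at 50.9%, Sox10 at 50.6%, Gal3st1 at 46.8%, Pllp at 44.7% and Car2 at 42.7% of the others' median.

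The other lists of the lineage differed in where that library stood. Of 29 other mature oligodendrocyte genes 21 were below all other libraries. Of 14 lineage regulators 3 were below all others, namely Olig1, Zfp488 and St18, and Sox6, which is high in precursors, was above all others (190.3 CPM, against 71.0 to 175 CPM). No precursor marker was below all others, and 3 of 10 were above all others. Pdgfra had 65.0 CPM, against 37.7 to 61.2 CPM elsewhere, Emid1 12.8 CPM, against 5.12 to 8.13 CPM, and Susd5 5.36 CPM, against 2.41 to 5.03 CPM. None of 9 committed oligodendrocyte markers lay outside the range of the others. The mean log2 level of astrocyte markers was 6.71, against 6.54 to 7.15, and that of microglia markers 3.95, against 3.72 to 4.44, both within the range of the others, with 2 of 11 astrocyte markers and no microglia marker below all others. Of 10 dentate granule neuron markers 7 were below all others, with Dsp, a desmosomal protein, at 0.270 CPM, against 19.1 to 86.5 CPM, and Prox1, the granule cell transcription factor, at 25.4 CPM, against 74.6 to 281 CPM. Of 10 pyramidal markers 4 were below all others (Neurod6, Fibcd1, Grik4 and Pou3f1).

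**Figure D4:**
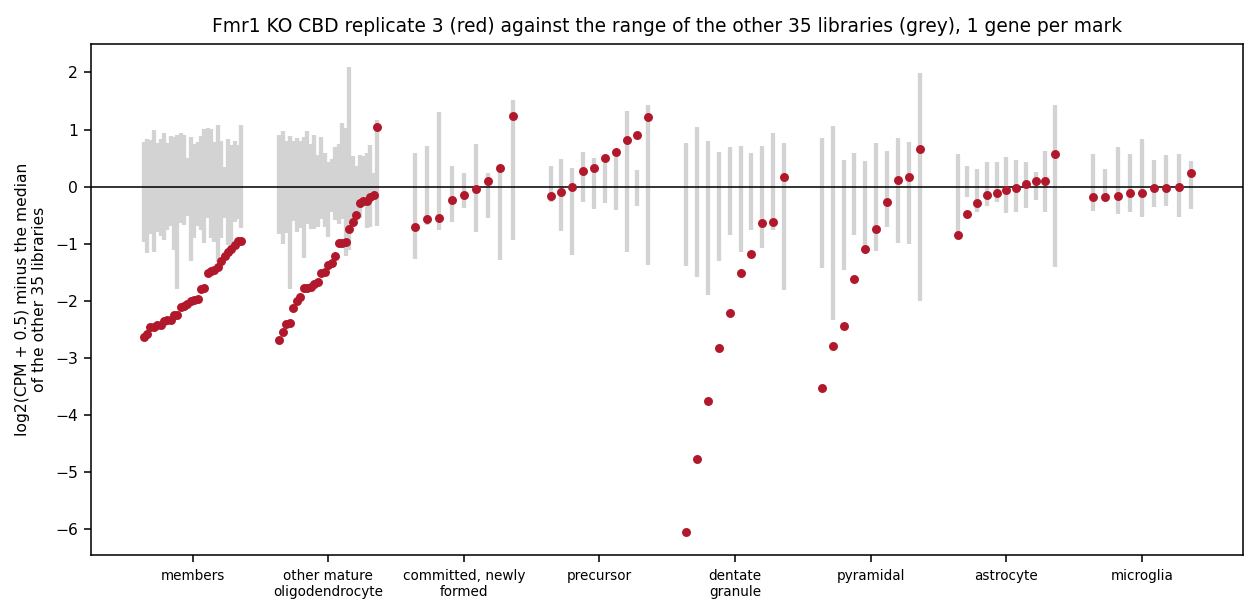
Log2(CPM + 0.5) of each gene in Fmr1 KO CBD replicate 3 (red points) and the range of the other 35 libraries (grey bars), both relative to the median of those 35, by gene list. The red points lie below the grey bars for 29 of 30 members, 21 of 29 other mature oligodendrocyte genes and 7 of 10 dentate granule neuron markers, and above them for 3 of 10 precursor markers.

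A second, smaller axis separated the members from each other. On the second component Ninj2 (loading -0.61), Bcas1 (-0.29) and Lpar1 (-0.17) stood against Cnp (0.28), Gjb1 (0.27), Tmem88b (0.26) and Gpr37 (0.19). The libraries with the highest scores were WT CBD replicate 1 (1.98), Fmr1 KO CBD replicate 5 (1.56) and Shank3 KO CBD replicate 6 (1.32). In WT CBD replicate 1 Ninj2 had 4.01 CPM and Cnp 235 CPM, whereas in WT CBD replicate 3 Ninj2 had 22.7 CPM and Cnp 195 CPM. In Fmr1 KO CBD replicate 5 Ninj2 had 5.58 CPM and Cnp 193 CPM, against 12.9 and 127 CPM in replicate 2 of that group. Ninj2 was thus low in some libraries in which Cnp was high. Without Fmr1 KO CBD replicate 3 the second component held 7.35% of the variance, with loadings of -0.64 for Ninj2, 0.30 for Cnp and 0.29 for Gjb1.

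The deposited span of Ninj2 is 106990 bases with 937 bases of joined exons, and that of Tmem88b is 4284 bases with 3471. Over the 30 members the loading had r = -0.56 (rho -0.39) with the log2 ratio of gene span to joined exons. In each library the mean log2 level of 3060 long genes of at least 100000 bases was set against that of 5725 short genes under 10000 bases, members left out. This balance ran from -0.57 in WT CBD replicate 1 and -0.45 in Fmr1 KO CBD replicate 5 to 0.31 in Shank3 KO vehicle replicate 2. With group means removed, the second component had r = -0.93 (rho -0.92) with it over 36 libraries, and r = -0.89 without the 2 libraries farthest out, WT CBD replicate 1 and Fmr1 KO CBD replicate 5. It was r = -0.89 (rho -0.79) when Fmr1 KO CBD replicate 3 was left out. The relation was chosen after the values were seen, shares the libraries' scaling and is given as a description.

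**Figure D5:**
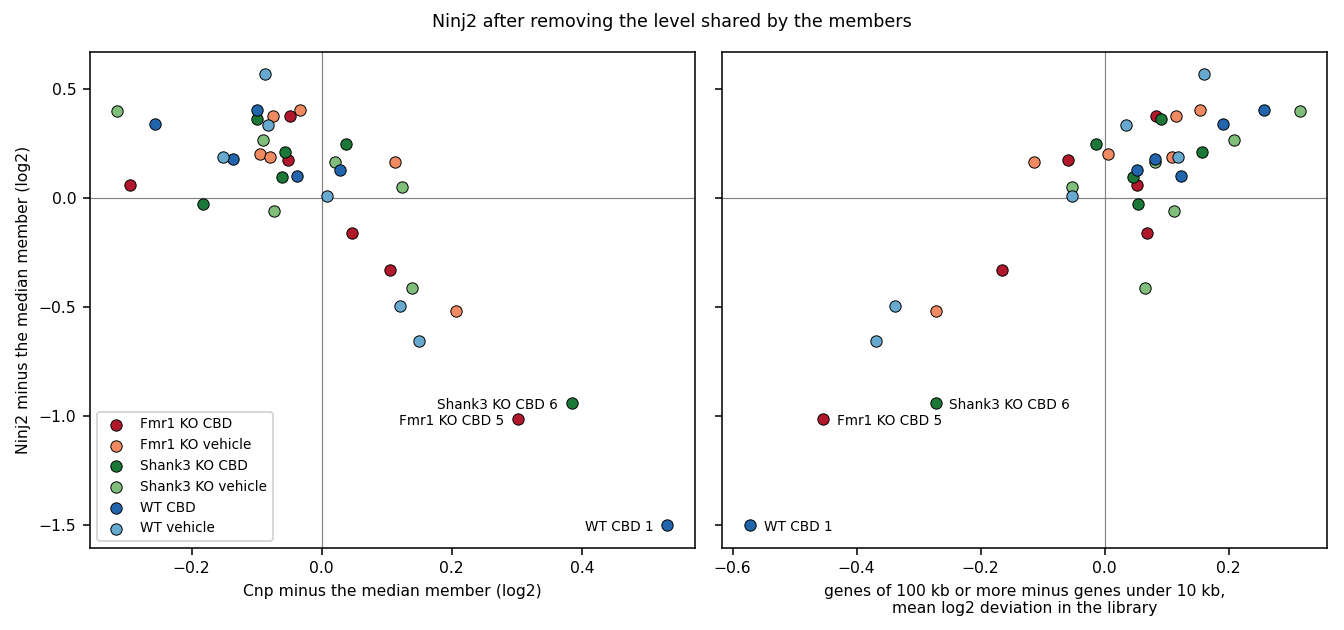
Left, Ninj2 against Cnp in the 36 libraries, each as log2 level relative to the library's median member. Right, Ninj2 on the same scale against the mean log2 level of long minus short genes outside the list, where WT CBD replicate 1 lies at -0.57 and Shank3 KO vehicle replicate 2 at 0.31.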

How the data were processed

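Hippocampal total RNA was extracted with Trizol and a column kit, per the labels' protocols. The submitters' processing notes name FastQC, STAR 2.7.11b, featureCounts 2.0.8 and the build GRCm39, and the sources used here give no annotation release or strand setting. The authors deposited whole-number counts per gene for 36 libraries with a gene length in bases, and 98.1% of 20137 coding genes with introns had a deposited length within 5% of the gene span. Symbols were matched for 51498 of 78298 identifiers, which held 99.0% of counts.

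From these counts, edgeR 4.0.16 (R 4.3.3) kept 21172 genes by its expression filter, holding 99.9% of counts. Libraries were scaled by TMM, and a quasi-likelihood model of 6 groups plus sex was fitted over all groups, or group by sex for the comparisons within a sex, with Benjamini-Hochberg adjustment over all tested genes and a threshold of 0.05. CPM values were TMM-scaled, and log2 levels used a pseudocount of 0.5. DESeq2 1.42.0, limma 3.58.1, 1 surrogate variable (sva 3.50.0), other filters, other scaling, a replicate block, a term for the label code number and leaving out each library were alternatives. The code was tested on simulated data. No 2 libraries held identical values. Libraries held 11655697 to 33228089 counts, and the errors given measure the spread between libraries. The main fit did not pair libraries by replicate number.

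The members and all gene lists were chosen with earlier results of these data known. Values are given for Mbp, Mog, Mag, Sox10, Myrf and the 6 members with the smallest p for CBD in Fmr1 KO mice, for the 3 smallest p of each other list described there, and for genes among the 10 nearest to the member level, of which 1 is not reported here. Other members and markers were named after their values were seen. Correlations are given without p-values because the members were chosen with results known.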

Additional observations from a re-analysis of the deposited data

Results flagged for a closer look

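In 72 checks of groups of 6 libraries, over the member level and the named members, 2 libraries stood far from the rest of their group. The gap to the nearest library, as a share of the group's range, was above 0.625, a limit that chance passes in about 1 of 20 groups, or about 3.6 of 72 checks, so 2 is no more than that. Fmr1 KO CBD replicate 3 had been singled out before these checks, and its result restates that.

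The member level of Fmr1 KO CBD replicate 3 was 3.39, against 4.67 to 5.24 in the other 5 libraries of that group, a gap of 0.693 of the range. The same library was low in dentate granule neuron markers (mean log2 level 3.63, against 4.83 to 6.64 in the other 35 libraries) and high in precursor markers (4.94, against 4.19 to 4.78). Their part in the low member level was not tested.

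Gjc3 had 33.8 CPM in WT vehicle replicate 5, against 18.6 to 23.96 CPM in the other 5 libraries of that group, a gap of 0.646 of the range. The member level of that library was 5.93, the highest of its group.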

How the results depend on the processing

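Over 49 alternative settings, 875 of 875 recomputed values of the members stayed on the same side of the adjusted threshold or, where no test applies, moved by less than the SD between replicates. This says little about stability, because no member was called at the start or in any setting. The median log2 fold change of the members in Fmr1 KO CBD against WT CBD libraries ran from -0.83 (without Fmr1 KO CBD replicate 6) to -0.51 (without replicate 3), with 9 to 29 members at an unadjusted p under 0.05, and was -0.53 with 7 members with 1 surrogate variable. With the 2 groups fitted alone 19 members had such a p. CBD against vehicle in Fmr1 KO mice ran from -0.55 (without Fmr1 KO CBD replicate 5, with 9 members) to -0.23 (without replicate 3, with 0), was -0.34 with 1 surrogate variable, with 0 members, and gave 6 members with no filter. The difference of the CBD effect between Fmr1 KO and WT ran from -0.78 (without WT vehicle replicate 5, with 11 members) to -0.43. Leaving out Fmr1 KO CBD replicate 3, WT CBD replicate 1 and Shank3 KO vehicle replicate 2 together, chosen after seeing the data, gave -0.55 against WT CBD, with 14 members, and -0.24 against Fmr1 KO vehicle, with 0. The shares of all genes at such a p are not set beside these counts, and such shares differ between fits. The counts are therefore not read as a result about the members.

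The smaller medians turned sign or moved by over 1.5 times with single libraries. Fmr1 KO against WT under vehicle ran from -0.25 (without Fmr1 KO vehicle replicate 4) to 0.07 (without WT vehicle replicate 5), with -0.22 without Fmr1 KO vehicle replicate 2, -0.06 without replicate 1, -0.02 without replicate 5 and -0.04 without replicate 6, and with -0.19 without WT vehicle replicate 2 and -0.06 without replicate 3. It was -0.03 with limma voom. Shank3 KO against WT under vehicle ran from 0.10 to 0.38, was 0.28 without Shank3 KO vehicle replicate 6, was 0.11 when WT vehicle replicate 2 was left out, and was 0.31 with limma voom and 0.05 with 1 surrogate variable. Shank3 KO against WT under CBD ran from -0.28 (without Shank3 KO CBD replicate 4) to 0.03, with -0.20 without Shank3 KO CBD replicate 1 and -0.05 without replicate 3, and with -0.19 without WT CBD replicate 2, -0.05 without replicate 3 and -0.19 without replicate 4. CBD in WT mice ran from -0.01 to 0.33 (without WT vehicle replicate 5), with 0.07 without WT CBD replicate 3, and with 0.10 when WT vehicle replicate 1 was left out, 0.06 without replicate 2 and 0.09 without replicate 4. CBD in Shank3 KO mice ran from -0.31 to -0.05, with -0.10 without Shank3 KO CBD replicate 3, and -0.08 and -0.26 without Shank3 KO vehicle replicates 3 and 6. Its difference from WT ran from -0.52 (without WT vehicle replicate 5) to -0.16, with -0.19 without Shank3 KO CBD replicate 6. Males against females under vehicle ran from -0.06 to 0.17 (without Fmr1 KO vehicle replicate 2). CBD in Fmr1 KO males ran from -0.92 to -0.11, with -0.23 without Fmr1 KO vehicle replicate 4. In females it ran from -0.51 (without Fmr1 KO CBD replicate 6, or without Fmr1 KO vehicle replicate 6) to -0.01, with -0.22 without Fmr1 KO CBD replicate 1. Male minus female ran from -0.58 (without Fmr1 KO CBD replicate 5) to 0.21, with 0.13 without Fmr1 KO vehicle replicate 4, and was -0.01 with limma voom. The cause of these moves was not tested.

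With the replicate number as a block, the median was -0.73 for Fmr1 KO against WT under CBD, with 23 members at an unadjusted p under 0.05, and -0.43 for CBD in Fmr1 KO mice, with 0. The share of all genes at such a p with the block is not given here. Same-numbered libraries correlated from -0.31 to 0.37 over 7 comparisons, and in no comparison did more than 3 of 6 correlate best with their own number. Some of these pairs also share a label code number, so this does not show that they share only a replicate number. With the label code number as a term within genotype, chosen after seeing the data, CBD had a median of -0.30 in Fmr1 KO mice (30 members lower), 0.20 in WT and -0.17 in Shank3 KO mice, the difference from WT was -0.53 for Fmr1 KO and -0.41 for Shank3 KO, and the medians were -0.29 in Fmr1 KO males, -0.32 in females and 0.0019 for male minus female, with 0 members at an unadjusted p under 0.05 in each. Genotype comparisons cannot be fitted with that term.

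The median SE of a member's log2 fold change was 0.29 in these groups of 6, and Qdpr and Evi2a, at 97.1% and wholly inside other genes, could not be tested. Of 200 listed genes 12 had 0 counts in every library, 6 of them at least 95% inside other genes.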
